A study of Mus musculus with 2 samples.

Results

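The large domains are the stretches of at least 700 kb between neighbouring domain boundaries on mouse chromosomes 1 to 19, and there were 403 of them among 7391 autosomal domains (5.45%). They were chosen by the measured positions of the boundaries: each domain runs from the midpoint of 1 listed boundary interval to the midpoint of the next, and no other property was used. Their lengths, and the absence of a listed boundary inside them, therefore follow from the choice and are given as a description with no test. Together they covered 390.2 Mb, or 16.3% of the length of all autosomal domains. Their median length was 855 kb, the middle 50% lay between 760 and 1017.5 kb, and the longest measured 3745 kb, against a median of 265 kb over all autosomal domains.

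In situ Hi-C, which joins and sequences DNA fragments that lie close together in the nucleus, was run with the restriction enzyme DpnII on immediate neuronal precursors. These cells came from the olfactory epithelium of untreated FVB/NTac pups of mixed sex and were isolated by fluorescence sorting, in the gate the labels call P4, from Ngn1-GFP mice, whose reporter marks cells that express the proneural gene Ngn1. The labels list 2 biological replicates of a single group, with 2200000 and 2100000 cells fixed in 1% formaldehyde, and do not say how many animals were pooled. The 7841 boundaries, 7410 of them autosomal, were called once, on contacts pooled over the replicates, so no value below carries a replicate error and the depth behind a call is unknown. A boundary list holds no expression, so the identity of the sorted cells could not be examined against marker genes.

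Contact domains are stretches of chromosome whose sequences meet each other more often than they meet the sequence outside. Many of their borders hold the protein CTCF, which stops the loop-extruding cohesin ring when its motif faces into the loop, and other borders lie at the promoters of active genes. Gene-poor, AT-rich parts of mammalian chromosomes hold many of the longest neuronal genes, which encode adhesion molecules, receptors and synaptic scaffolds, and they also hold tandem arrays of receptor and defence genes that arose by repeated local duplication.

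Sequence at the borders is shown first, because a pair of CTCF matches facing each other is the arrangement known at the ends of many loops, and because it was found at few large domains. Exact matches to the CTCF consensus were searched on both strands of GRCm38.p6, in a window reaching 10 kb beyond each boundary interval. A match facing inward at both borders was present in 4 of 403 large domains (0.993%, Wilson 95% interval 0.387 to 2.52%) and in 2.83% of the 6988 shorter domains. By domain length, the share of inward pairs was 3.70% from 120 to 185 kb and 1.73% from 500 to 600 kb. It was 1.23% from 600 to 700 kb, 0.510% from 700 to 850 kb and 2.17% from 850 to 1000 kb. From 1000 to 1500 kb it was 0%, and it was 5% in the 20 domains of 1500 kb or more. The lower share was thus not particular to large domains, and it was not particular to inward pairs either. Within 10 kb, a match facing outward at both borders was present in 5 large domains (1.24%) and in 3.22% of shorter ones. Matches in any direction at both borders were present in 11 large domains (2.73%) and in 9.36% of shorter ones. With a window of 25 kb the shares of inward pairs were 2.23% (1.18 to 4.19%) and 7.11%. The 4 pairs are printed below from left to right along the chromosome, each as 30 bases read 5′ to 3′ on the strand of the match (plus at the left border, minus at the right), with the consensus match in capitals.
Myc domain, left border, chr15:61983422-61983451: tctctgtggCCAGTAGAGGGCacacttact
Myc domain, right border, chr15:63771772-63771801: caattgtcgCCAGCAGATGGCagcattgtc
Gfra2 domain, left border, chr14:70780931-70780960: cgaatgtgcCCAGCAGGGGGCagtgccagc
Gfra2 domain, right border, chr14:71670604-71670633: gcggggtggCCAGCAGGGGGCaagctggcc
Clnk domain, left border, chr5:38782019-38782048: tagaatctgCCAGCAGAGGGCactagaggc
Clnk domain, right border, chr5:39639646-39639675: ggtaacattCCAGCAGGGGGCgcaaatgac
Fbxw domain, left border, chr9:109140601-109140630: atcccctccCCACTAGGGGGCgtggagatg
Fbxw domain, right border, chr9:109862597-109862626: cgaggaagaCCACCAGAGGGCgctcgctcc

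The first of these domains, chr15:61982501-63767500, was 1785 kb long and held a single protein-coding start, that of Myc, the growth-promoting transcription factor. Its borders scored 0.899 and 0.832, both in the strong class. The deposited score is the authors' own value for each boundary, and from the values the strong class starts at 0.5 and the weak class at 0.2. The Gfra2 domain, chr14:70782501-71672500, also held 1 start, that of a receptor for neurturin, and its borders scored 1.82 and 0.315. The Clnk domain, chr5:38777501-39642500, held only the start of Clnk, an adaptor of immune receptor signalling, with border scores of 1.08 and 0.571. The Fbxw domain, chr9:109147501-109872500, differed in holding 17 starts, most of them of the Fbxw family of F-box proteins, and its borders scored 0.656 and 1.76. A match shows that these letters are present in the reference, not that the site is bound, and FVB/NTac differs from the strain of the reference.

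The domains nearest the threshold are given once, with no test. Exactly 700 kb was reached by 11 domains. The 3 that come first among them were chr12:15817501-16517500, which held no protein-coding start, chr12:46512501-47212500, which held the start of the neuronal splicing factor Nova1, and chr16:77472501-78172500, which held the predicted gene Gm11146. Another 5 domains stopped just outside, at 695 kb. Of the first 3 of these, chr1:145112501-145807500 held no start, chr13:73012501-73707500 held 9 and chr5:150672501-151367500 held 3.

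**Figure D1:**
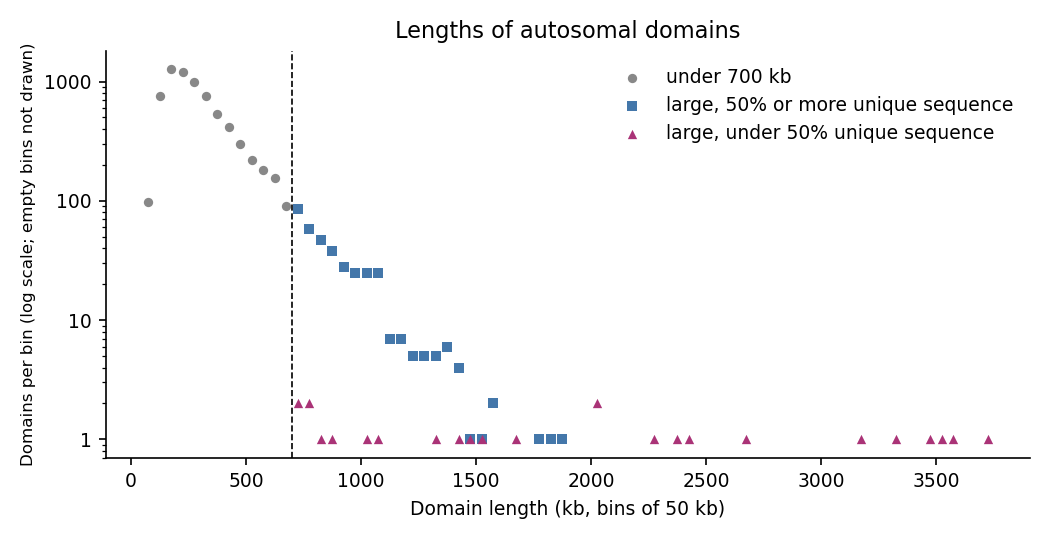
Number of autosomal domains in each 50 kb bin of length (log scale, empty bins not drawn), for domains under 700 kb and for large domains with at least 50% or under 50% unique sequence. The dashed line marks 700 kb, and all 12 domains of 2000 kb or more have under 50% unique sequence.

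How much of a large domain could be read uniquely set its members apart from each other. A word of 50 assembled bases was taken as unique when the reference holds it once, and unique sequence is the percentage of sampled words of this kind. It came to 81.0% over the large domains and 91.7% over the shorter ones. In 25 large domains it was under 50%, and these were 25 of only 28 such domains on the autosomes. They covered 48.7 Mb and included all 12 domains of 2000 kb or more. The longest domain with at least 50% unique sequence measured 1865 kb. Reads from repeated sequence cannot be placed, and their part in the absence of listed boundaries was not tested.

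Unassembled sequence was also concentrated in these domains. Runs of at least 10 undetermined bases numbered 59 in 27 large domains and summed to 3.79 Mb, against 3.23 Mb in 201 runs over all shorter domains. Of the 59 runs, 19 were exactly 50 kb long, the conventional length for a gap of unknown size. The longest run, of 395 kb, filled 45.9% of chr5:14827501-15687500, whose right border had the highest score among the large domains (3.33). The assembled sequence fell short of 700 kb in 6 large domains, and the unique sequence fell short of it in 160.

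**Figure D2:**
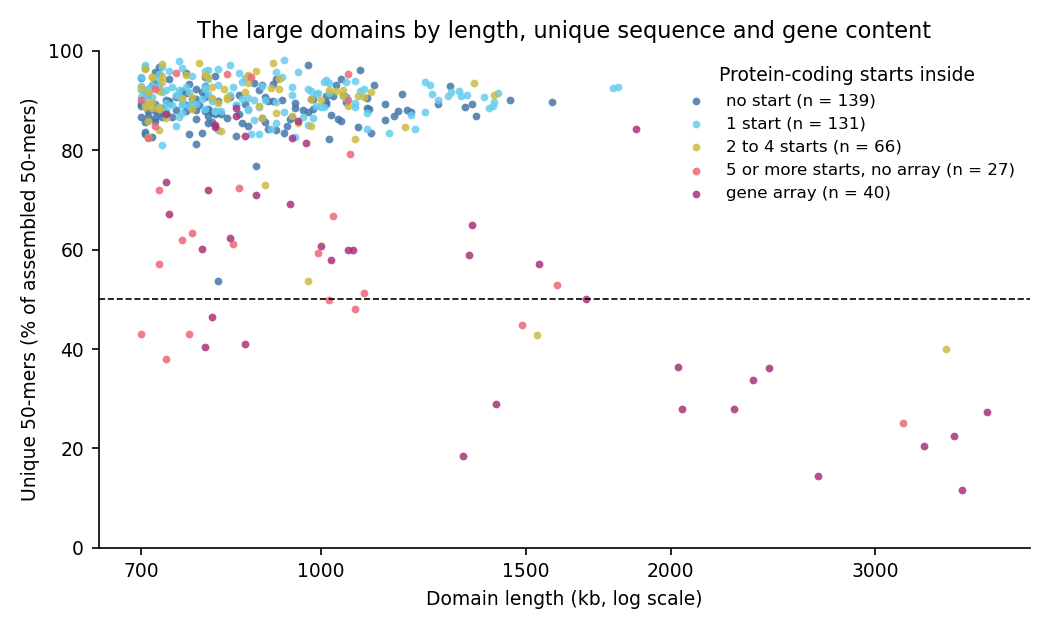
Each point is 1 of the 403 large domains, placed by its length (kb, log scale) and by the percentage of assembled 50-base words that occur once in the reference, and coloured by the protein-coding starts inside. The dashed line marks 50% unique sequence, below which 16 of the 25 domains hold a gene array and none lacks a start.

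Large domains held few gene starts for their size. A start is the 5′ end of the GENCODE M21 gene model. Of 20807 autosomal protein-coding genes, 1424 (6.84%) started in a large domain, which gave 3.65 starts per Mb (Poisson 95% interval 3.46 to 3.84, counting error only) against 9.60 (9.47 to 9.74) in shorter domains. Domains with at least 50% unique sequence held 2.49 starts per Mb, and the 25 others held 11.8. Over all domains the density fell with length from 22.7 starts per Mb under 120 kb to 12.6 between 185 and 265 kb. It was 6.30 between 390 and 500 kb. Low density was not particular to large domains, since it was 3.93 from 500 to 600 kb and 4.07 from 600 to 700 kb. The density was 3.20 from 700 to 850 kb and 2.54 between 1000 and 1500 kb. It then stood at 9.43 in the 20 domains of 1500 kb or more, of which 14 had under 50% unique sequence. On each of the 19 chromosomes the density was lower in large domains than in shorter ones, with a range of 0.975 to 9.02 against 6.34 to 15.5 starts per Mb.

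**Figure D3:**
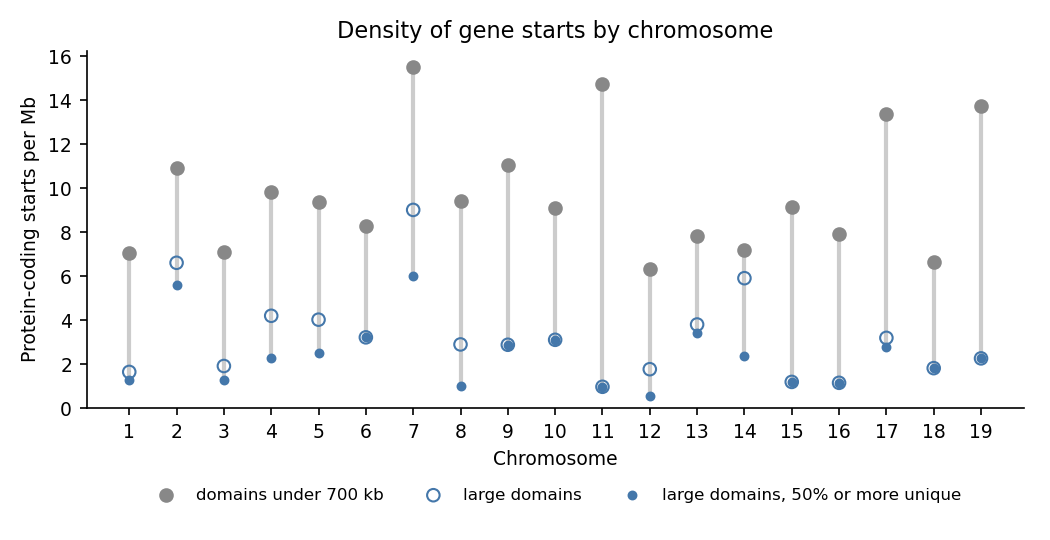
Protein-coding starts per Mb on each of the 19 autosomes, in domains under 700 kb (grey), in all large domains (open circles) and in large domains with at least 50% unique sequence (small filled circles). The open circle lies below the grey point on all 19 chromosomes.

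The typical large domain held 1 start, the median over the 403, against 2 in shorter domains. No protein-coding gene started in 139 of the large domains (34.5%, Wilson 95% interval 30.02 to 39.3%), against 24.5% of the shorter domains. This was not particular to large domains, since the share was 32.2% from 390 to 500 kb, 38.9% from 500 to 600 kb and 37.7% from 600 to 700 kb. Another 131 large domains held exactly 1 start. Gene bodies reached into some of the domains without a start, and 104 (25.8%) held no part of a protein-coding gene. Coding gene bodies covered 23.8% of the sequence of large domains and 44.8% of that of shorter ones. Starts of long noncoding RNA genes were also sparser, at 2.28 against 4.24 per Mb. Pseudogenes went the other way, at 6.09 against 4.50 per Mb, with 20.8 per Mb in the 25 domains under 50% unique sequence and 3.99 per Mb in the 378 others. GC content was 39.4% in large domains and 42.4% in shorter ones, and it was lower in the large domains on all 19 chromosomes.

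The 5 longest domains without a protein-coding start are described by the nearest starts outside them. The longest, chr14:94217501-95797500 (1580 kb), lay between the start of Pcdh9, a protocadherin, 327 kb beyond its left border, and that of 4921530L21Rik, 83.8 kb beyond its right border. The next, chr8:96442501-97897500 (1455 kb), lay between Got2, the mitochondrial aspartate aminotransferase, and Cdh8, a classical cadherin, whose starts were 3.53 Mb apart. chr4:78227501-79587500 (1360 kb) began 15.5 kb from the start of Ptprd, a receptor phosphatase of synapses, and its nearest start on the right was that of Tyrp1, an enzyme of melanin synthesis, 1247 kb away. chr3:139247501-140597500 (1350 kb) had the start of Stpg2 41.8 kb to its left and that of Pdha2, a testis form of a pyruvate dehydrogenase subunit, 615 kb to its right, and the body of Stpg2 covered 34.3% of the domain. chr18:17527501-18857500 (1330 kb) lay between Cdh2, the N-cadherin gene, and Dsc3, a desmosomal cadherin. Of these 10 borders, 2 were in the strong class, the left borders of the chromosome 4 domain (0.502) and of the chromosome 3 domain (0.844).

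Of all 1424 starts in large domains, 222 (15.6%) lay within 50 kb of a border, where an even spread along the domains would place 8.90%. Scaled to domain length, 29.2% of starts in large domains and 27.0% in shorter domains lay in the outer 10% on either side, where an even spread gives 20%. The single start of the 131 domains with 1 start was within 50 kb of a border in 54 (41.2%), where an even spread gives 11.3%. Over the 490 starts in domains with at least 50% unique sequence and no array, 27.8% lay within 50 kb of a border and an even spread gives 11.6%. In domains with an array or with little unique sequence, the share was 9.21% and an even spread gives 7.49%. Starts in shorter domains lay within 50 kb of a border in 47.7%, where an even spread gives 42.0%, since 50 kb is a large part of a short domain.

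Genes of at least 300 kb were more often placed in large domains than genes in general. Of 541 such autosomal genes, 69 (12.8%) started in a large domain, against 6.84% of all protein-coding genes. The share by gene length was 9.41% under 10 kb, 5.60% from 10 to 30 kb, 4.77% from 30 to 100 kb, 4.70% from 100 to 300 kb, 9.29% from 300 to 500 kb and 17.9% (39 of 218, Wilson 95% interval 13.4 to 23.5%) from 500 kb up. Of the 686 genes under 10 kb that started in large domains, 387 lay in domains with under 50% unique sequence, and none of the genes of 300 kb or more did. At least 50% of the body lay in 1 large domain for 83 of the 541 long genes (15.3%, 12.6 to 18.6%) and for 6.91% of all protein-coding genes. Large domains covered 16.3% of the length of all autosomal domains, and the 12.8 and 15.3% of long genes did not exceed that. A boundary lay inside 419 of the 541 long genes.

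Among the 15 longest genes with at least 50% of the body in 1 large domain, some filled the domain from border to border. Macrod2, which encodes an ADP-ribose hydrolase and spans 1998 kb, contained the whole of chr2:140672501-141712500 (1040 kb, border scores 0.455 and 0.271). Magi2, the gene of a synaptic scaffold protein, contained chr5:19397501-20442500 (1045 kb, 0.499 and 0.209). Lrrc4c, which encodes a netrin-G ligand of synapses, contained chr2:96552501-97462500 (910 kb, 0.746 and 0.801). In all, 10 large domains (2.48%) lay wholly inside 1 gene, against 4.42% of shorter domains. A domain fits only inside a gene longer than itself, and these shares were not matched for domain length. Others of these genes, named after their values were seen, were Cntnap2, Lrp1b, Cntnap5a, Dlg2, Sdk1 and Ctnna3.

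Other long genes began at or near 1 border and ran into the domain. Csmd3, a complement-control protein of neurons, covered 99.9% of chr15:48082501-48792500 and started 0.438 kb from its right border (0.676). Ptprt, a receptor phosphatase, covered 99.8% of chr2:161862501-162662500 and started 1.35 kb from its right border, which scored 1.32 against 0.290 on the left. Sgcz, the zeta-sarcoglycan gene, covered 99.4% of chr8:37617501-38667500. Of the 69 long genes that started in large domains, 13 (18.8%) started within 10 kb of a border and an even spread gives 2.21%, while for shorter genes 5.09% did and an even spread gives 1.76%.

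Another 7 of the 15 covered less of their domain or started outside it. Naaladl2, Dab1 (an adaptor of reelin signalling) and Ctnna2 (the neuronal alpha-catenin) covered 90.7, 74.1 and 79.3% of a large domain. Ccser1, Nkain2, Kcnip4 (a potassium channel partner) and Nrg3 (a ligand of the receptor ErbB4) covered 84.9, 94.96, 97.6 and 58.8%. These 4 and Ctnna2 started outside the domain they covered. GC content of the domains of these 15 genes ran from 35.2% at Csmd3 to 42.5% at Dab1.

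**Figure D4:**
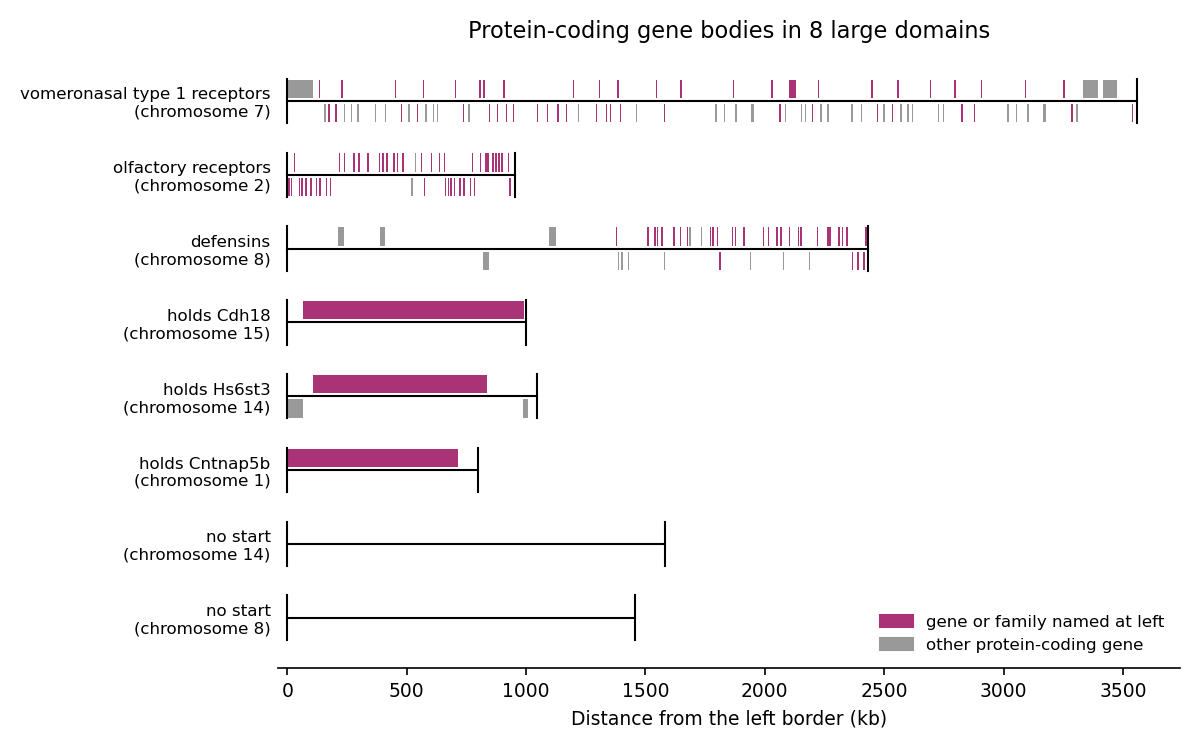
Protein-coding gene bodies in 8 large domains, by distance from the left border (kb), with genes of the plus strand above each line and of the minus strand below. The 3 domains at the top hold 50 vomeronasal type 1 receptors, 45 olfactory receptors and 32 defensins, the next 3 hold 1 long gene each, and the bottom 2 hold no gene body (bodies are drawn at least 6 kb wide to be visible).

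The members of 10 lists of genes with shared roles were placed in the domains, and their shares are read against the 6.84% of all protein-coding genes. Neuronal adhesion molecules and synapse organisers had 23 of 91 members starting in large domains (25.3%, Wilson 95% interval 17.5 to 35.1%). Genes of the same lengths gave 11.4%. Each of the 23 started in a domain of its own, and 19 of the 91 members had at least 50% of the body in 1 large domain. The longest of these domains, at 1420 kb, held Cdh8 and had border scores of 0.220 and 0.283. Slitrk1, a synaptic adhesion protein, lay in 1295 kb (0.381 and 1.83). Kirrel3, which sorts olfactory axons, started 16.6 kb from the right border of a 1240 kb domain (1.47 and 0.757). Tenm3, a teneurin of axon targeting, started 1.45 kb from the left border of a 1005 kb domain. Most of the body of Kirrel3 (551 kb) and of Tenm3 (616 kb) lay outside the domain named, beyond that border. Cdh18 lay wholly inside 1000 kb. Of the 23, 11 started within 50 kb of a border, beside 54 of the 131 single starts of large domains (41.2%).

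Neurotransmitter receptors had 11 of 61 members in large domains (18.03%, 10.4 to 29.5%, where genes of the same lengths gave 7.68%). The kainate receptor gene Grik2 was the only start in 1410 kb (0.385 and 0.376). Grin2a, an NMDA receptor subunit, lay alone in 1070 kb, and Htr7, a serotonin receptor, started 4.99 kb from the right border of another 1070 kb domain, which scored 1.59. The 11 genes occupied 9 large domains.

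Developmental transcription factors had 13 of 115 members in large domains (11.3%, 6.73 to 18.4%, where genes of the same lengths gave 7.98%). Of the 13, 8 started within 50 kb of a border, beside 41.2% of the single starts of large domains. Among all starts in domains with at least 50% unique sequence and no array, 136 of 490 (27.8%) did. Tfap2a started 24.1 kb from the right border of 1355 kb (0.325 and 2.08). Rorb lay 254 kb inside 1080 kb. Tfap2b and Tfap2d shared 945 kb, and Tbx3 started 26.8 kb from the right border of 930 kb (2.00 and 0.421). Isl1, a LIM homeodomain factor named here after its values were seen, was the only start in 845 kb, 12.8 kb from the right border.

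The remaining lists had few members in large domains. Axon guidance genes had 2 of 65, the receptor gene Epha5 and the ligand gene Efna5. Voltage-gated channels had 2 of 55, the potassium channel genes Kcna4 and Kcnh7. Regulators of olfactory neuron precursors had 1 of 28, Ezh2, the histone H3 lysine methyltransferase. Markers of immature and mature olfactory neurons had 0 of 32, which allows a share of up to 9.38% (3 counts of the total), and markers of other cells of the epithelium had 0 of 33, which allows up to 9.09%. Cytosolic ribosomal proteins had 1 of 72 (1.39%, 0.246 to 7.46%), Rps9. The respiratory chain had 3 of 81 (3.70%, 1.27 to 10.3%), Uqcrb, Cox7c and Ndufa3. Rps9 and Ndufa3 lay in the same domain.

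Gene arrays formed the other kind of content. An array was counted where at least 5 starts of 1 of 62 listed gene families lay in 1 domain, so that families outside the list, such as Fbxw, do not count. By this rule 40 large domains held one (9.93%, Wilson 95% interval 7.37 to 13.2%), against 2.79% of shorter domains. A longer domain has more room for 5 starts, and these shares were not adjusted for length. Large domains held 40 array domains in 390.2 Mb, and shorter domains held 195 in 1997 Mb. These 40 domains held 853 of the 1424 starts in large domains (59.9%), and 16 of them had under 50% unique sequence. Predicted genes with Gm numbers counted as a family here and made up 22.3% of the starts in large domains, against 5.90% of all autosomal protein-coding genes. Of these 317 starts, only 80 were among the 850 starts in large domains with at least 50% unique sequence. Without Gm-numbered models 28 large domains held an array.

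Chemosensory receptors gave the arrays with the most named members. Vomeronasal type 1 receptors, which detect pheromones, had 70 of 208 members in large domains, and 50 of these lay in chr7:19967501-23527500, which with 88 starts in 3560 kb held more starts than any other large domain and had 11.5% unique sequence. Vomeronasal type 2 receptors had 48 of 121, with 24 in chr7:6942501-10242500 (3300 kb, 20.5% unique). Olfactory receptors, the odorant receptors of the main epithelium, had 97 of 1128 (8.60%), beside 6.84% of all genes. Of these, 45 lay in chr2:86972501-87927500 (955 kb, 85.9% unique, border scores 0.302 and 0.288) and 43 in chr2:85582501-86317500 (735 kb, 87.4% unique, 0.876 and 0.378). These olfactory receptor domains were long over mostly unique sequence, whereas the largest vomeronasal domains were not.

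Arrays of defence, scent and reproductive genes followed. The defensins, antimicrobial peptides, had 32 of 64 members in chr8:19517501-21947500 (2430 kb, 36.1% unique, 14.4% unassembled). All 22 major urinary proteins, lipocalins that carry pheromones, lay in chr4:59947501-62212500 (2265 kb, 27.9% unique, 17.7% unassembled). The secretoglobins had 21 of 34 in chr7:31392501-33747500 (2355 kb, 33.7% unique). Zinc finger Zfp genes had 61 of 385 in 17 large domains. Of these, 13 lay in chr4:145447501-147492500 (2045 kb, 27.9% unique, 21.1% unassembled) and 10 in chr2:174902501-178407500 (3505 kb), where 34 Gm-numbered models also started. Gm-numbered models led in chr14:41072501-44817500, the longest domain of all (3745 kb), with 62 of its 78 starts, and in chr5:93302501-95977500 (2675 kb), with 21 of 28.

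The other 24 of the 40 lay in domains with at least 50% unique sequence. The Skint genes, known for selecting skin T cells, had 9 of 11 members in chr4:111867501-113732500, which at 1865 kb was the longest domain with at least 50% unique sequence (84.2% unique, borders 0.790 and 1.10). The prolactin family of placental hormones had 17 of 25, 15 of them in chr13:26812501-27657500 (845 kb, 86.9% unique). Many families had no member in a large domain, among them the Hox genes (0 of 39), the clustered protocadherins (0 of 57), the histones (0 of 67), the keratins (0 of 53) and the H2 genes (0 of 34). The share of all protein-coding genes was only 6.84%. Neighbouring members of a family can share a domain and are not independent counts, and avoidance of large domains was not tested. Outside these 24, the domain chr14:52352501-54042500 (1690 kb, 49.96% unique) held 7 olfactory receptors and all 113 immunoglobulin and T cell receptor segments found in large domains.

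The remaining 2 of the 10 largest domains held no array. chr12:17832501-21282500 (3450 kb) held 3 starts, 17 starts of long noncoding RNAs and 81 pseudogenes, with Asap2, a regulator of membrane traffic, as its longest gene, and 40.0% of its sequence was unique. chr12:21282501-24452500 (3170 kb) adjoined it, held 7 starts including Adam17, a protease that sheds membrane proteins, and was 25.2% unique. These neighbours formed the longest run of adjoining large domains, 6.62 Mb, with a weak boundary (0.341) between them.

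The borders of large domains had lower scores than other boundaries of the same list, as a description of that list. Of 775 distinct border boundaries, 355 (45.8%) were in the strong class, against 53.9% of all autosomal boundaries and 54.9% of the 6635 that border no large domain. The median score was 0.447 (middle 50% 0.287 to 0.849) against 0.563 (0.317 to 0.919). Both borders were strong in 84 large domains (20.8%), 1 in 194 and neither in 125 (31.02%), where shorter domains gave 29.2, 50.4 and 20.4%. The strong share was lower than in shorter domains on 15 of 19 chromosomes, the exceptions being chromosomes 2, 3, 10 and 14. Low shares were not particular to large domains. By domain sides, 36.25% were strong under 120 kb, 58.6% from 185 to 265 kb, 46.3% from 500 to 600 kb and 43.4% from 600 to 700 kb. The share was 42.9% from 700 to 850 kb, 51.6% from 850 to 1000 kb, 40% from 1000 to 1500 kb and 57.5% from 1500 kb up. Counted by domain sides, strong borders were least frequent where no gene started, in large and shorter domains alike. With no start inside, 26.6% of sides were strong in large domains and 32.5% in shorter ones. With 1 start the shares were 49.2 and 54.4%, with 2 to 4 starts 60.6 and 63.9%, and with 5 or more 59.0 and 66.2%.

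**Figure D5:**
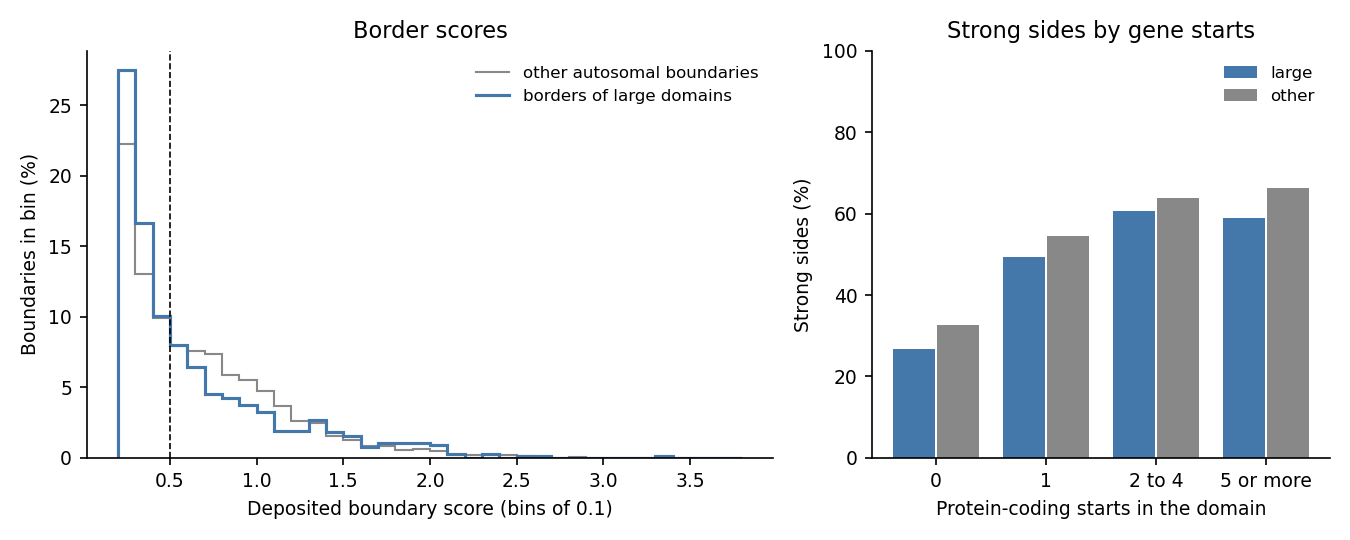
Left, percentage of boundaries in bins of 0.1 of the deposited score, for borders of large domains and for other autosomal boundaries, with the start of the strong class at 0.5 dashed. Right, percentage of strong domain sides by the number of protein-coding starts inside, for large and other domains, which rises from 26.6 to 60.6% between 0 and 2 to 4 starts in large domains.

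What lay at the borders also differed. A protein-coding start within 10 kb of the boundary interval was present at 17.8% of the borders of large domains (Wilson 95% interval 15.3 to 20.7%) and at 37.0% of other autosomal boundaries (35.9 to 38.2%). Among strong boundaries the shares were 26.2 and 42.8%, and among weak boundaries 10.7 and 29.98%. A CTCF consensus match in the same window was present at 16.3% of the former (Wilson 95% interval 13.8 to 19.02%) and 27.9% of the latter. Along whole domains, CTCF matches stood at 2.59 per Mb in large and 5.61 per Mb in shorter domains. These shares were not matched for base composition, whose part in the difference was not tested.

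The highest mean border score belonged to chr5:14827501-15687500, the domain with the 395 kb gap described above (0.236 and 3.33). It was followed by chr10:56372501-57442500 (0.789 and 2.52), where Gja1, the connexin 43 gene, was the only start in 1070 kb, and by chr3:52252501-53017500 (2.03 and 0.786), which held the transcription factor gene Foxo1 and Cog6. The next were chr9:12147501-13222500 (0.204 and 2.61), with no start, and chr18:63652501-64522500 (1.88 and 0.918), with 6 starts including Onecut2, a neuronal transcription factor. The lowest mean scores were those of chr18:87167501-88312500 (0.201 and 0.233), chr13:88092501-88822500 (0.215 and 0.219), which held the start of Edil3, an integrin ligand, and chr5:68567501-69362500 (0.221 and 0.213), which held the start of Kctd8, a GABA-B receptor subunit. They were followed by chr13:7237501-8177500 (0.211 and 0.224), with no start, and by chr9:5092501-5797500 (0.217 and 0.244), with the caspase genes Casp1, Casp4 and Casp12. Each of these 5 held at most 3 starts, and all of their borders were in the weak class. Of the body of Edil3 (502 kb), 99.8% lay in the adjoining domain, and coding bodies covered only 0.141% of chr13:88092501-88822500.

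Most large domains had no large neighbour, but large domains were only 5.45% of all autosomal domains. The share that random placement would give was not computed. A neighbour that was itself large was present for 61 of 403 (15.1%), in 30 runs of which the longest by number, chr1:146412501-148987500, joined 3 domains with 1 protein-coding start in 2.575 Mb. The median length of the neighbours of large domains was 320 kb, against 265 kb over all autosomal domains. Of the 31 boundaries between 2 large domains, 7 were strong (22.6%, Wilson 95% interval 11.4 to 39.8%) and their median score was 0.317. By chromosome, large domains made up from 2.02% of domains on chromosome 11, with 9 of them, to 7.60% on chromosome 14, where they covered 23.5% of the domain length.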

How the data were processed

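Boundaries were called by the authors on the matrix combined from both replicates, on GRCm38 per the submitters' processing notes. Which caller made the list, and with what settings, is not given in the sources used here. Each score in the deposited list is the authors' value for each 5 kb interval. Contact matrices, insulation and compartment tracks were not analysed here.

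Domains were built between boundary midpoints with Python 3.11.15, pandas 2.3.3, NumPy 2.4.6 and SciPy 1.17.1. Sequence came from the RefSeq copy of GRCm38.p6 and genes from GENCODE M21. Unique sequence is the share of 50-base words, 1 in 32 sampled, that occur once. Gaps are runs of 10 or more undetermined bases. Length-matched shares average, over the members of a list, the share of all genes in the same length class. Intervals are 95% (Wilson or exact Poisson), cover counting error only and treat domains and genes as independent. The limit for a count of 0 is 3 counts of the total. Domain building was checked on simulated data.

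The members, the 10 gene lists and the 62 gene families were chosen with earlier results of these data known. Named items follow rules: the largest domains, longest genes, largest arrays, longest domains without a start, extreme border scores and, for each list, the first 6 members by domain length. Some items that these rules select are not reported here. Alternatives are given below.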

Additional observations from a re-analysis of the deposited data

How the results depend on the processing

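No paired analysis was possible because both replicates form a single group and were combined before calling. Gene starts per Mb were lower in large than in shorter domains under each of the 6 alternative definitions compared, with 2.33 against 9.37 for length in unique sequence, 4.68 against 13.4 for strong boundaries only and the smallest ratio, 4.64 against 8.91, at 1000 kb. Merging boundaries within 50 kb changed no value, since the shortest domain was 60 kb, and adding chromosome X gave 427 domains. The cause of the shifts below was not tested. At 600 kb there were 647 large domains, which held most of the body of 24.0% of long genes. At 1000 kb there were 115, with 4.64 starts per Mb, 29.6% without a start, 18.3% with an array and 5.55% of long genes. Counting only unique sequence left 243, with 2.33 starts per Mb, 6.17% with an array and 11.5% of long genes. Using strong boundaries only gave 929, with a median GC of 40.2% (38.7% with all boundaries), 4.68 starts per Mb, 8.83% without a start, 4.31% with convergent CTCF matches and 61.0% of long genes. Requiring the whole body gave 7.21% of long genes, genes of 500 kb or more gave 24.3%, and counting bodies instead of starts left 25.8% of domains empty. Arrays of 10 or more members were held by 3.97%. As alternatives chosen after seeing the data, leaving out domains under 50% unique gave 2.49 starts per Mb and 6.35% with an array, and not counting Gm-numbered models gave 6.95%. The strong share of borders moved by less than its interval in each of the 7 alternatives run on it. Depth is unknown, so whether weak boundaries inside large domains were missed cannot be told.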

Other observations

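Small RNAs followed the coding genes less closely. Annotated microRNA genes stood at 0.720 per Mb in large domains (Poisson 95% interval 0.638 to 0.809) and at 0.876 per Mb (0.836 to 0.918) in shorter domains, a smaller difference than the 3.65 against 9.60 per Mb of protein-coding starts. Soft-masked repeats covered 38.9% of large and 32.3% of shorter domains. In 54 large domains neither a protein-coding nor a long noncoding RNA gene started. Divergent CTCF matches, facing outward at both borders, were present at 5 large domains (1.24%) and at 3.22% of shorter ones. A single protein-coding gene covered at least 50% of 63 large domains (15.6%) and of 26.7% of shorter domains. Covering a longer domain takes a longer gene, and these shares were not matched for domain length.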
